A study of Mus musculus with 36 samples.

Results

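The nuclear genes for the subunits of oxidative phosphorylation were followed in mouse liver from late gestation to adulthood. Members were all genes of the expression table whose symbols begin like those of the subunit families: Nduf for complex I, Sdh for complex II, Uqcr for complex III, Cox4 to Cox8 for complex IV and Atp5 for complex V. The rule matched 82 of the 21889 gene symbols in the table. One of them, Cox4nb, is by its known function a subunit of the endoplasmic reticulum membrane complex and was set aside, which left 81 subunit genes. Of these, 37 belong to complex I, 4 to complex II, 8 to complex III, 18 to complex IV and 14 to complex V. Ndufa4 and its relative Ndufa4l2 are counted with complex I by symbol, although Ndufa4 is now placed in complex IV. No measured value was used to choose them.

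RNA of whole liver was measured by RNA-Seq in 36 male C57BL/6 mice (C57BL/6J in the study's methods), 3 at each of 12 ages. The ages were GD17.5 (fetal, named as 2 days before birth in the labels), Day 0 (newborn, not yet suckled), Days 1, 3, 5, 10, 15 and 20, when pups were suckling, and Days 25, 30, 45 and 60, after weaning at 21 days. All mice were untreated and carried no engineered allele, they came from several litters, and females were not studied. Values are FPKM, the fragments sequenced relative to transcript length and to all mapped fragments of the library, so levels of different genes can be compared per length. In bulk tissue, fewer cells of a type and less RNA per cell cannot be told apart.

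Oxidative phosphorylation takes place in the inner membrane of mitochondria. Complex I (NADH dehydrogenase) and complex II (succinate dehydrogenase, also an enzyme of the citric acid cycle) pass electrons through complex III (cytochrome bc1) to complex IV (cytochrome c oxidase), where oxygen is reduced, and complex V (ATP synthase) uses the proton gradient to make ATP. Most subunits are encoded in the nucleus and imported; the core encoded by mitochondrial DNA was not analysed here. Several subunits exist as alternative forms from separate genes that are used in different tissues or states.

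Promoters of 6 members are shown: Atp5g1, Atp5g2 and Atp5g3, which encode one mature protein but differ in their course with age, Cox6b1 and Cox6b2, alternative forms of a subunit of which one nearly disappears, and Sdha, whose level rises with age. Each run was read from RefSeq (GRCm38.p6), 5′ to 3′ on the gene's own strand, from 250 bases before the annotated start to 30 bases after it. Capitals mark letters that match, on either strand, a motif of NRF1, YY1, ERR (AAGGTCA) or GABP (CCGGAAG), factors known for genes of mitochondrial proteins. NRF1 letters stand in Atp5g2, Atp5g3 and Sdha, ERR letters in Atp5g3 and GABP letters in Cox6b1. The runs, all from the minus strand, lie at chr11:96075602-96075881 (Atp5g1), chr15:102671018-102671297 (Atp5g2), chr2:73911297-73911576 (Atp5g3), chr7:30626085-30626364 (Cox6b1), chr7:4753065-4753344 (Cox6b2), chr13:74350211-74350490 (Sdha).
Atp5g1: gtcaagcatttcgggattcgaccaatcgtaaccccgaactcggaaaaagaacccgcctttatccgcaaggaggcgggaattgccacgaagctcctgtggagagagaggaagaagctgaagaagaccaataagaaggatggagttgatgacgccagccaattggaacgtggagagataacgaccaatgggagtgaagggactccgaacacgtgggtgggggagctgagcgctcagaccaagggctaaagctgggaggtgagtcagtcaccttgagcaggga
Atp5g2: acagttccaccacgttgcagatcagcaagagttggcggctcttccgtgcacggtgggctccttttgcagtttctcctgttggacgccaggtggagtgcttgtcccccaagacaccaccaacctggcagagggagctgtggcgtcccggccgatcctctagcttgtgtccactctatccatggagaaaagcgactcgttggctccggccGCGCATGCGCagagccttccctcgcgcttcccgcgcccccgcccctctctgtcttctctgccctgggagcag
Atp5g3: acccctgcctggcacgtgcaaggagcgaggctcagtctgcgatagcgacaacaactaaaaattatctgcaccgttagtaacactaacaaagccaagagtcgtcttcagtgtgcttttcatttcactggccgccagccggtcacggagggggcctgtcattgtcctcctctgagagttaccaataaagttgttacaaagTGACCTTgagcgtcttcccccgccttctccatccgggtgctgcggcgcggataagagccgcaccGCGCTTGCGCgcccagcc
Cox6b1: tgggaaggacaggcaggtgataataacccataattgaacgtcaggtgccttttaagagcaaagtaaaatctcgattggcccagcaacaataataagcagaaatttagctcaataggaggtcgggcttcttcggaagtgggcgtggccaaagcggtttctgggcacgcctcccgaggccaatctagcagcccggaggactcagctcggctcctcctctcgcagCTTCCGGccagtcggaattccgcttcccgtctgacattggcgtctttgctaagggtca
Cox6b2: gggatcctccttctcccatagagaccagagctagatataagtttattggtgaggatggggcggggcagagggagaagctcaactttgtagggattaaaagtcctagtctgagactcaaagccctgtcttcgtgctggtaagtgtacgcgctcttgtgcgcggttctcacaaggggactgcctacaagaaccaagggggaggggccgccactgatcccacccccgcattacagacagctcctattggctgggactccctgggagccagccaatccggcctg
Sdha: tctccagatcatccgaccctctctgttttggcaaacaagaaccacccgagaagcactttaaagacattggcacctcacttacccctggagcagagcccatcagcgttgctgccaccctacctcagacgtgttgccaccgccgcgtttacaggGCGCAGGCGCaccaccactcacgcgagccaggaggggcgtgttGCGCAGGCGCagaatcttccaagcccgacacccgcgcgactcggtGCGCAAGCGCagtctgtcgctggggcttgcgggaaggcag

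Subunit transcripts were abundant. On the deposited FPKM scale, the 81 genes together had the lowest age mean on Day 10, at 9280 FPKM (SD 1432, n = 3), and the highest on Day 30, at 11570 FPKM (SD 2131, n = 3). Without Day 30 replicate 1, which had 14020 FPKM, the Day 30 mean was 10340 FPKM, below those of Day 1 (10970 FPKM) and Day 25 (10940 FPKM). With libraries brought to a common upper quartile, the sum ran from 7872 FPKM on Day 3 to 15440 FPKM on Day 30, so how much it varied with age depended on the scale. As a share of all FPKM in a liver, the Day 10 and Day 30 sums were 2.31% and 2.97%, beside 2.49% in the fetus and 2.51% in the adult. Single mice ranged from 1.99% (Day 10 replicate 1) to 3.50% (Day 30 replicate 1). Over the 36 mice, the median member reached 76.5 FPKM in complex I, 125 in complex II, 125 in complex III, 55 in complex IV and 105 in complex V. Atp5b, the catalytic beta subunit of complex V, led with 716 FPKM, followed by Cox4i1, a regulatory subunit of complex IV, with 671 FPKM.

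Summed levels of cell type markers also differed between ages. Erythroid markers (7 of 8 listed were in the table) summed to 127200 to 185200 FPKM in the fetus and 650.2 to 715 FPKM in the adult, and hepatocyte markers (5 of 6) to 4753 to 5496 and 33120 to 38630 FPKM. Skeletal muscle markers (9 of 9) summed to 1411 FPKM in Day 0 replicate 1 and 96.1 FPKM in Day 10 replicate 1, whereas the other 34 mice had 0.353 to 16.2 FPKM. Pancreatic acinar markers (5 of 5) reached 14240 FPKM in Day 60 replicate 1, a mouse of the reference age, against 4.55 and 4.38 FPKM in its companions. Without that mouse, 37 instead of 47 members were called in at least one age (47.4% of members, with 86.0% of all genes). Without its companion, Day 60 replicate 2, 33 members were called (42.3%, with 86.1% of all genes). Summed FPKM per library ranged from 353712 to 450597 and relative depth, read from steps in low values, from 0.897 to 1.22 of the median library. The part of these cells in the subunit values was not tested.

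**Figure D1:**
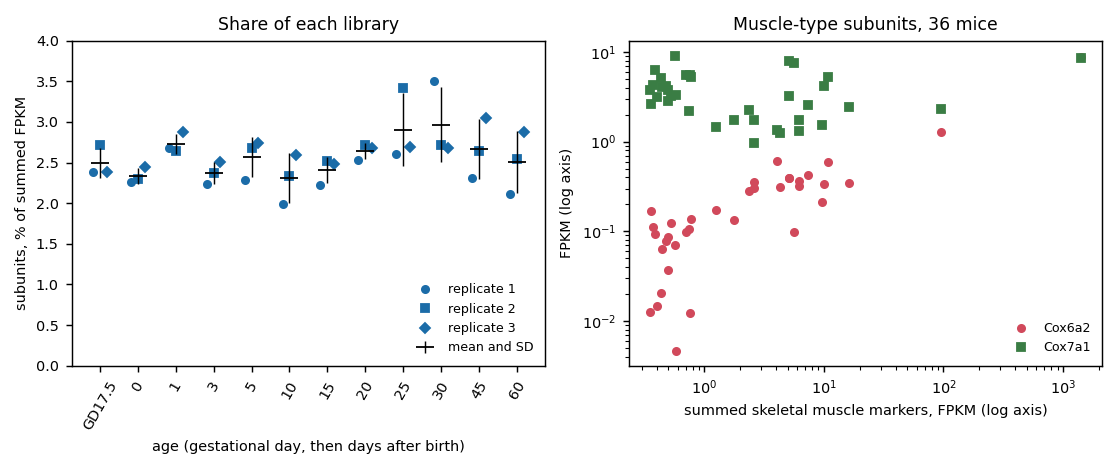
The left panel plots, by age, the summed FPKM of the 81 subunits as a percentage of all FPKM in each of the 36 livers, with age means and SD; shares lie between 1.99 and 3.50%. The right panel plots Cox6a2 and Cox7a1 (FPKM) against the summed skeletal muscle markers (FPKM) on log axes, one point per mouse and gene, and the mice with 1411 and 96.1 FPKM of markers have the highest Cox6a2 values.

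The range of single subunits over the ages also depended on the scale. In the 78 members that passed the filter (an age mean of 1 FPKM or more at some age), the highest age mean on the deposited scale was a median of 1.65 times the lowest, and 63 (80.8%) stayed under 2. For all 11149 tested genes the median was 3.94 and 11% stayed under 2. Among genes averaging 20 FPKM or more, 59 of 68 members (86.8%) and 349 of 1907 genes (18.3%) did. Under upper quartile scaling, the median was 2.35 for members and 3.23 for all genes, and 22 members (28.2%) and 19.6% of genes stayed under 2. Mice of one age were no closer to each other, with a median SD of 0.26 for members and 0.22 for all genes (log2 scale). Cox6b2, Cox6a2, Ndufa4l2, Cox4i2 and Cox7a1 were the 5 members with age means more than 4 times apart, and each of them has a more abundant alternative form.

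Each age was compared with Day 60 in 1 fit across all tested genes (limma on log2(FPKM + 1)); differences are given as the first group named minus the second. With Benjamini-Hochberg adjustment over all genes and all 11 comparisons, 47 of 78 members (60.3%) had an adjusted p under 0.05 in at least one age, against 90.7% of all genes. The counts for single ages follow, adjusted within each comparison, with the share of all tested genes called in that direction in parentheses. At GD17.5 there were 9 higher (56.4%) and 9 lower (18.6%), on Day 0 10 higher (43.6%) and 16 lower (20.3%) and on Day 1 16 higher (53.4%) and 9 lower (11.7%). Day 3 had 10 higher (55.7%) and 8 lower (10.3%), Day 5 12 higher (56.9%) and 7 lower (8.50%) and Day 10 5 higher (35.3%) and 15 lower (10.6%). From Day 15 on few members were called: 1 higher (18.4%) and 2 lower (8.95%) on Day 15, 2 higher (8.93%) and 0 lower (6.99%) on Day 20 and 1 higher (4.18%) and 1 lower (3.24%) on Day 25. In both directions together, the background was 75.1%, 63.9%, 65%, 66.0%, 65.4%, 46.0%, 27.4%, 15.9% and 7.42% for these 9 ages in turn. So at each of these 9 ages a smaller share of members than of all genes passed. On Days 3 and 5 this did not hold under upper quartile scaling, which called 60.3% of members against 57.5% of all genes and 57.7% of members against 54.4% of all genes; in at least one age it called 79.5% and 86.5%. Without the 2 libraries with the most skeletal muscle RNA, the lower members of Day 10, which had made up 19.2% of members, were 7 in place of 15, or 9.09% against 10.8% of all genes. The library left out at that age, Day 10 replicate 1, also had the lowest summed subunit FPKM there (7689, against 9688 and 10460). The part of muscle RNA in this change was not tested.

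On Days 30 and 45 limma called 0 members, where 3.56% (1.77% higher, 1.79% lower) and 0.233% (0.0628% higher, 0.170% lower) of all genes were called. At an unadjusted p under 0.05 there were 6 and 0 members, and ordinary per-gene variances gave 0 calls at both ages. The share of all genes at an unadjusted p is not given here, so these unadjusted counts have no background. A p that misses the threshold does not show that levels were the same.

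**Figure D2:**
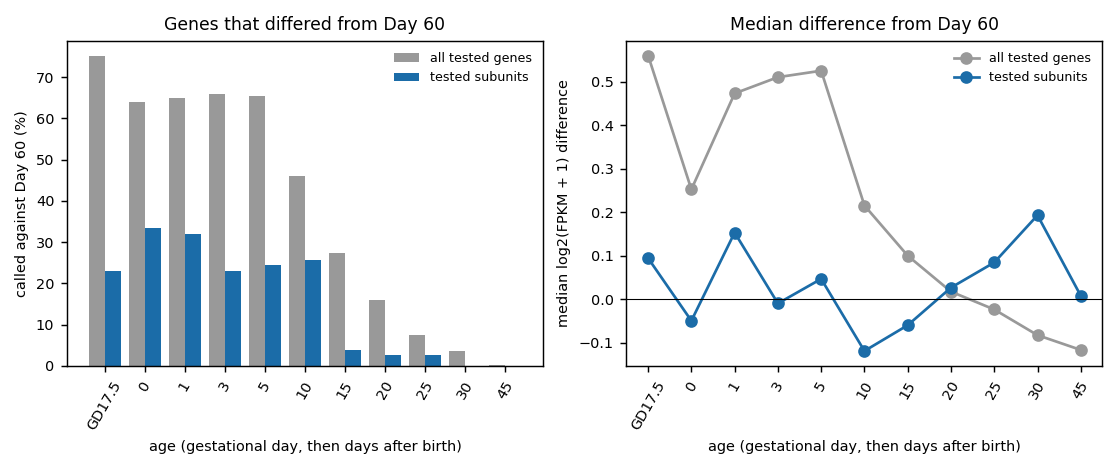
The left panel shows, for each of 11 ages, the percentage of genes called against Day 60, for all 11149 tested genes (grey) and the 78 tested subunits (blue). The right panel shows the median difference from Day 60 (log2(FPKM + 1) scale), which at GD17.5 is 0.56 for all genes and 0.09 for subunits; the lines cross between Days 15 and 20.

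With adjustment over all 11 comparisons, 31 members were called in no age, none of them of complex II. Of these, 5 (Ndufa11, Ndufb6, Uqcrh, Cox5b and Atp5k) had passed in 1 age with adjustment within it. The 31 included Ndufa2, Ndufa3, Ndufa11, Ndufb4, Ndufb8, Ndufc1, Ndufs1, Ndufs7, Ndufs8 and Ndufv1 of complex I, Uqcrh of complex III, Cox4i1, Cox5b, Cox6a1, Cox6b1, Cox7b and Cox7c of complex IV, and Atp5c1, Atp5d, Atp5e, Atp5h, Atp5j2, Atp5k and Atp5l of complex V. Ndufs1, Ndufs7, Ndufs8 and Ndufv1 carry redox centres of complex I, and Atp5c1, Atp5d and Atp5e form the central stalk of ATP synthase. For the 31 members, the highest age mean was 1.22 to 3.25 times the lowest (median 1.55), and 28 of them stayed under 2. Cox7b, whose testis form is Cox7b2, had 30.2, 35.9 and 32 FPKM in the fetal mice and 26.5, 29.5 and 30.8 FPKM in the adults.

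Cox7b2, Cox8b and Cox8c did not pass the filter. Cox7b2 and Cox8c, known from testis, were each listed at 0 in 34 of 36 mice. The exceptions were 0.0236 FPKM (Day 0 replicate 1) and 0.0217 FPKM (Day 20 replicate 1) for Cox7b2, and 0.0293 FPKM (Day 5 replicate 2) and 0.0284 FPKM (Day 10 replicate 2) for Cox8c.

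**Figure D3:**
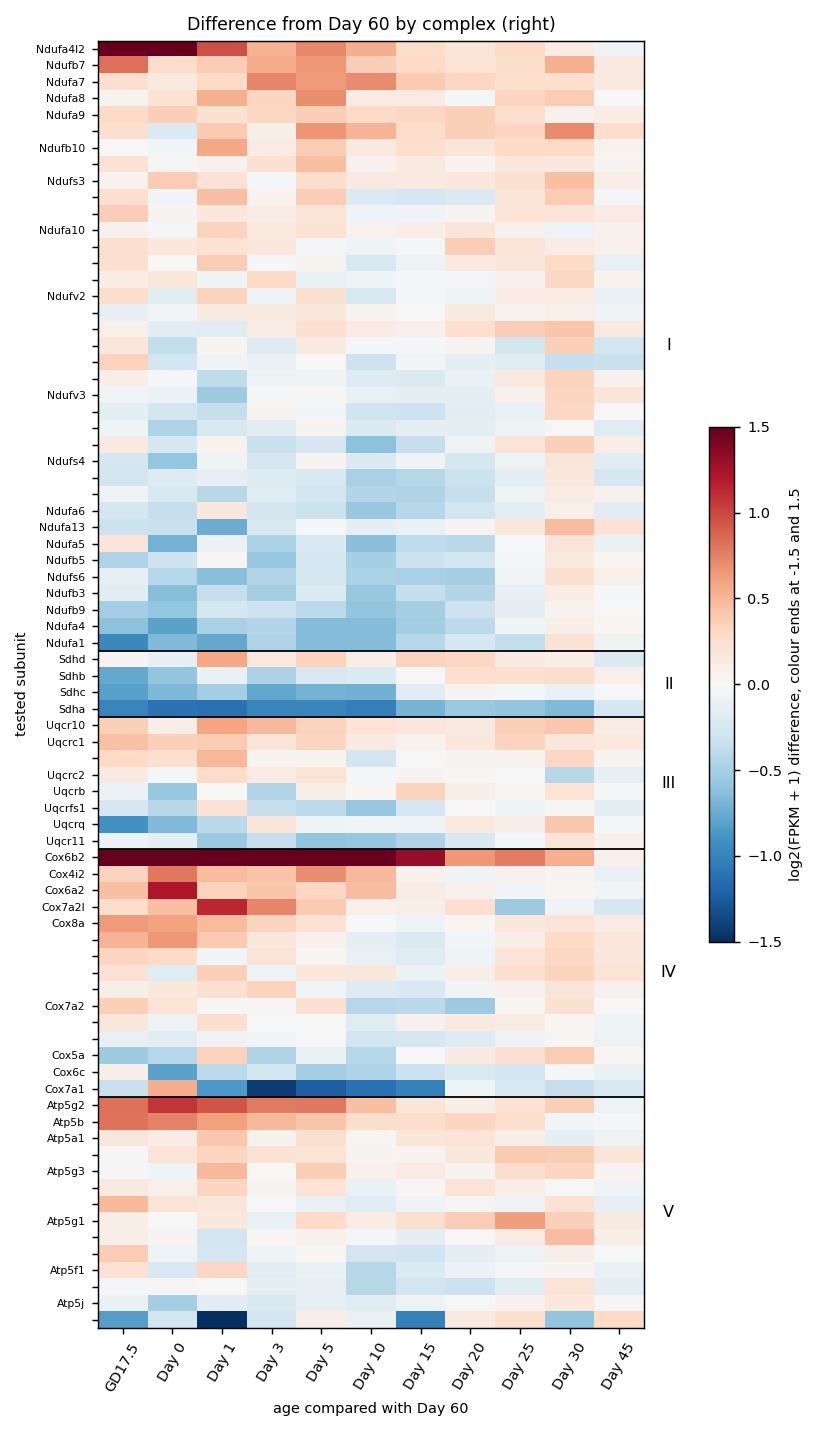
Each line is 1 of the 78 tested subunits, grouped by complex, and each column 1 of 11 ages; colour is the difference from Day 60 in mean log2(FPKM + 1), with the scale ending at -1.5 and 1.5. Names are given for the 47 members called in at least one age over all 11 comparisons. Most lines are pale; among members called at GD17.5, Cox6b2 (5.32) and Ndufa4l2 (3.59) are furthest above Day 60 and Sdha (-0.99) and Ndufa1 (-0.97) furthest below.

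Fetal against adult liver was the widest span. At GD17.5 compared with Day 60, 9 members were higher and 9 lower, or 23.1% of those tested (background 75.1%). The median difference was 0.09 for members and 0.56 for all genes, and 6 of 78 members lay above the all-gene median. Higher in the fetus were Cox6b2, Ndufa4l2, Ndufb7, Atp5g2, Atp5b, Cox8a, Uqcrc1, Cox4i2 and Ndufa9, and lower were Sdha, Ndufa1, Uqcrq, Sdhc, Sdhb, Ndufa4, Cox5a, Ndufb9 and Ndufb5. This balance moved with the scale: with libraries brought to a common upper quartile, the all-gene median went from 0.56 to 0.15, that of members to -0.50, and the calls to 2 higher and 40 lower, or 53.9% of members against 69.7% of all genes. The member median stayed below that of all genes. Of the 18 calls 11 stayed, and among the 9 higher ones Cox6b2 (4.87, adjusted p = 2.56e-16) and Ndufa4l2 (3.11, adjusted p = 8.53e-14) were still called.

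In complex I, which takes electrons from NADH, Ndufb9 and Ndufb8 of the membrane arm were most abundant. Ndufb9 stood at 188, 272 and 238 FPKM in fetal mice and 288, 321 and 387 FPKM in adults, without overlap (log2 difference -0.52, SE 0.20, adjusted p = 0.0237). Ndufb8 stood at 185, 272 and 258 FPKM and 150.5, 174 and 227 FPKM, which overlapped (log2 difference 0.37, SE 0.21, adjusted p = 0.116). Ndufa1, a small membrane arm subunit, had 40.7, 50.8 and 52.7 FPKM in the fetus and 86.2, 98.3 and 99.5 FPKM in the adult, with all fetal mice lower (log2 difference -0.97, SE 0.20, adjusted p = 0.000111), and was called lower than Day 60 at 6 ages. Ndufb7 went the other way: fetal mice had 177, 245 and 212 FPKM and adult mice 106, 111 and 138 FPKM (log2 difference 0.83, SE 0.22, adjusted p = 0.00143). Its excess was lost under upper quartile scaling (0.23, adjusted p = 0.460) and turned to -7e-04 once trends with GC content and length were removed.

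Ndufa4l2 (chr10:126951995-126954208, plus strand, NCBI37/mm9), known to be induced by low oxygen, peaked in the newborn. It rose from 23.2, 20.4 and 30.6 FPKM in the fetus to 61.5, 53.6 and 52.4 FPKM on Day 0 (log2 difference 1.16, SE 0.19, adjusted p = 1.05e-05). On Day 1 it had dropped to 2.57, 4.64 and 2.46 FPKM, a 17.3-fold fall in the means with no overlap (log2 difference -3.78, SE 0.19, adjusted p = 1.55e-14). From Day 3 onward the mice had between 0.773 and 2.80 FPKM. Ndufa4, the related common form, had 171, 139.7 and 107 FPKM in the fetus and 226, 208 and 197 FPKM in the adult (log2 difference -0.62, SE 0.24, adjusted p = 0.0219). Ndufa4l2 made up 15.7% of the pair's FPKM at GD17.5, 31.7% (SD 3.32, n = 3) on Day 0, 2.29% on Day 1 and 0.541% on Day 60. Vascular mural cell markers (6 of 6), which mark another cell type that uses the gene, summed to 26.6 to 37.1, 49 to 78.2, 22.2 to 55.7 and 6.79 to 17.3 FPKM at those ages, and their part in the result was not tested.

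Of the 4 subunits of complex II, 3 rose with age. Sdha, the flavoprotein that oxidises succinate (chr13:74459702-74487728, minus strand, NCBI37/mm9), had 63.2, 60.2 and 60.8 FPKM in the fetus, 86.4, 82.4 and 80.7 FPKM on Day 20 and 129, 133 and 108 FPKM on Day 60. Every fetal value lay below every adult one (log2 difference -0.99, SE 0.22, adjusted p = 0.000157), and Sdha was lower than Day 60 at the 7 ages up to Day 15. After weaning it scattered, with 45.1, 105 and 97 FPKM on Day 30. Sdhb, the iron-sulfur subunit, had 72.8, 113 and 102 FPKM in the fetus and 138, 151 and 199 FPKM in the adult (log2 difference -0.77, SE 0.21, adjusted p = 0.00208). Sdhc, a membrane anchor, went from 73.1, 103 and 85 FPKM in the fetus through 124, 142 and 141 FPKM on Day 15 to 136, 152 and 173 FPKM in the adult (log2 difference -0.82, SE 0.14, adjusted p = 4.12e-06). Neither overlapped between the ends of the series.

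Sdhd, the other membrane anchor, peaked on Day 1. It rose from 106, 121 and 91.1 FPKM on Day 0 to 174, 160.4 and 181 FPKM, with no overlap (log2 difference 0.70, SE 0.14, adjusted p = 0.000606). Fetal mice (102 to 131 FPKM) and adult mice (95.6 to 136 FPKM) overlapped (log2 difference 0.05, SE 0.14, adjusted p = 0.780). Over the suckling ages it was higher than after weaning (log2 difference 0.30, SE 0.07, adjusted p = 0.000179), but not under upper quartile scaling (-0.11, adjusted p = 0.124). Whether it differs from its partners was not tested.

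**Figure D4:**
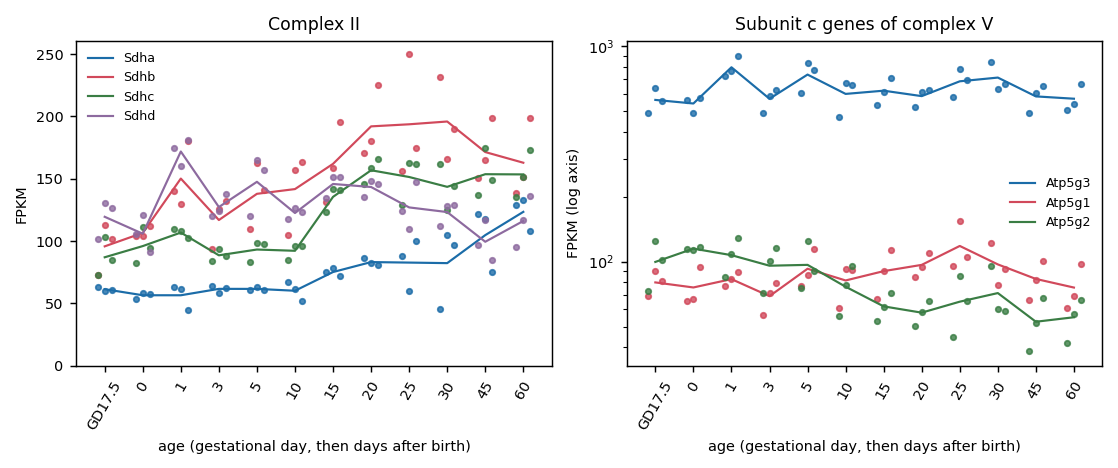
FPKM of single mice (points) and age means (lines) against age for the 4 Sdh genes (linear axis) and the 3 genes of subunit c (log axis). Sdha climbs from a mean of 61.4 FPKM at GD17.5 to 123 FPKM on Day 60 and Sdhd peaks at 172 FPKM on Day 1; Atp5g3 lies above Atp5g1 and Atp5g2 in all 36 mice.

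In complex III, Uqcrq, a small subunit, and Uqcrc1, a core subunit, were most abundant. Uqcrq had 166, 273 and 269.5 FPKM in the fetus and 373, 407 and 529.9 FPKM in the adult, without overlap (log2 difference -0.90, SE 0.26, adjusted p = 0.00249), and was already at 432, 503 and 544 FPKM on Day 3. Uqcrc1 had 192, 256 and 238 FPKM in the fetus and 145, 166 and 193 FPKM in the adult; it was called higher in the fetus although 1 fetal mouse lay within the adult range (log2 difference 0.44, SE 0.17, adjusted p = 0.0233), and under upper quartile scaling its sign turned (-0.16, adjusted p = 0.463).

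Complex IV holds most alternative forms. Cox6b2 (chr7:4703396-4704696, minus strand, NCBI37/mm9), in adults a testis form, fell furthest of all subunits: mice had 47.4, 67.5 and 58.2 FPKM at GD17.5, 33.3, 33.9 and 41.9 on Day 0, 3.46, 6.05 and 6.35 on Day 10 and 0.397, 0.485 and 0.496 on Day 60. Fetal means were 126 times adult ones (log2 difference 5.32, SE 0.22, adjusted p = 7.98e-19), and Cox6b2 was called higher than Day 60 at the 9 ages up to Day 25. Cox6b1, the common form, had 333, 399.6 and 309 FPKM in the fetus and 284, 310.2 and 296 FPKM in the adult (log2 difference 0.22, SE 0.23, adjusted p = 0.393). The share of Cox6b2 in the pair went from 14.3% (SD 1.69, n = 3) to 0.154%. Male germ cell markers (5 of 5) summed to at most 0.0544 FPKM in any mouse. Erythroid markers fell over the same ages, and their part in the result was not tested.

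Cox4i1 was the main Cox4 form, with 527, 849.9 and 698 FPKM in the fetus and 533, 637 and 762 FPKM in the adult (log2 difference 0.09, SE 0.19, adjusted p = 0.682). Cox4i2, known for its response to oxygen and for lung, rose from 0.542, 0.589 and 0.619 FPKM in the fetus to 1.12, 0.829 and 1.58 FPKM on Day 0 (log2 difference 0.45, SE 0.14, adjusted p = 0.00844) and had 0.127, 0.132 and 0.518 FPKM on Day 60. It made up at most 0.168% of the pair in any age mean. With 1 FPKM added before logs, fold changes of so low a gene are understated. Its highest age mean was 1.18 FPKM, on Day 0, just above the filter of 1 FPKM. All fetal and Day 60 values lay below 1 FPKM, so Cox4i2 was tested only because of ages at which it was high. Its call on Day 0 is therefore no independent support for a rise.

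**Figure D5:**
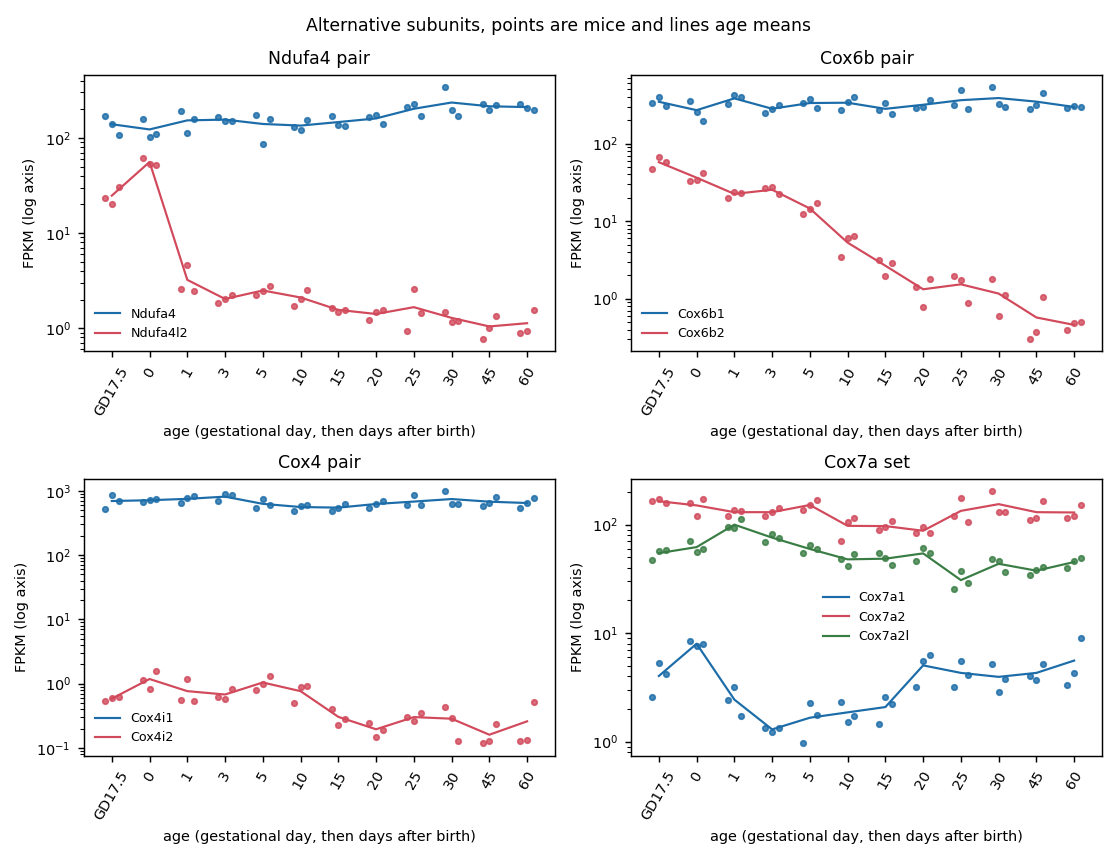
FPKM (log axis) against age for alternative forms, with mice as points and age means as lines. Ndufa4l2 drops from 55.8 FPKM on Day 0 to 3.22 FPKM on Day 1 and Cox6b2 from 57.7 FPKM at GD17.5 to 0.459 FPKM on Day 60, while Cox6b1 stays between 196 and 536 FPKM in all mice and Cox7a1 is lowest on Day 3.

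Cox6a2, Cox7a1 and Cox8b are the heart and skeletal muscle forms. Cox6a2 had 8.84, 0.0975 and 0.391 FPKM on Day 0 and 1.28, 0.210 and 0.134 FPKM on Day 10, and at most 0.602 FPKM in mice of other ages. Cox8b had 1.79, 0.0430 and 0 FPKM on Day 0, 1.21, 0.185 and 0 FPKM on Day 10 and at most 0.106 FPKM elsewhere. In both, the high mice were Day 0 replicate 1 and Day 10 replicate 1, which also had the most skeletal muscle marker RNA (Acta1 at 636 and 40.8 FPKM). Cox6a2 was called higher on Day 0 than on Day 60 (log2 difference 1.22, adjusted p = 0.0100), but without those 2 libraries it did not pass the filter. The common forms were far higher. Cox6a1 had 538, 743 and 662 FPKM in the fetus and 462, 526 and 561 FPKM in the adult (log2 difference 0.32, SE 0.20, adjusted p = 0.146). Cox8a had 339, 443 and 409.6 FPKM and 227, 236 and 307 FPKM there, with the fetus higher (log2 difference 0.63, SE 0.19, adjusted p = 0.00436) but not under upper quartile scaling (0.03, adjusted p = 0.918).

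Cox7a1, unlike the others, was high in all 3 newborns. It went from 2.57, 5.31 and 4.21 FPKM in the fetus to 8.52, 7.54 and 7.90 FPKM on Day 0 (log2 difference 0.88, SE 0.27, adjusted p = 0.00717) and to 2.40, 3.18 and 1.74 FPKM on Day 1 (log2 difference -1.40, SE 0.27, adjusted p = 0.000233), with no overlap at either step. It was lowest on Day 3 (1.32, 1.23 and 1.34 FPKM) and reached 3.19, 5.59 and 6.35 FPKM by Day 20. Without the 2 libraries with the most muscle RNA the fall after Day 0 was nearly as large (log2 difference -1.36, adjusted p = 0.00116). Brown fat markers (2 of 2) summed to 0.0114 to 0.0216 FPKM at GD17.5, 0.391 to 1.53 FPKM on Day 0 and 0.215 to 1.40 FPKM on Day 1, with Ucp1 at 0 in all mice of these 3 ages. The vascular mural cell markers given for Ndufa4l2 also had their highest mean of these ages on Day 0 (62.9 FPKM), and the part of either list was not tested. Cox7a2, the common form, had 165, 172 and 157 FPKM in the fetus and 115, 121 and 152 FPKM in the adult (log2 difference 0.35, SE 0.20, adjusted p = 0.104).

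Cox7a2l, which joins complexes III and IV and is shortened in C57BL/6 mice, was highest on Day 1. It rose from 70.7, 55.9 and 59.6 FPKM on Day 0 to 94.3, 93.8 and 112 FPKM (log2 difference 0.68, SE 0.15, adjusted p = 0.000918). At weaning it fell from 46.6, 61.1 and 55.2 FPKM on Day 20 to 25.7, 37.4 and 29.2 FPKM on Day 25, again without overlap (log2 difference -0.81, SE 0.15, adjusted p = 0.000369), and by Day 30 it had 47.7, 46.2 and 36.7 FPKM. A near-identical copy of its transcript (98.2% identity) lies elsewhere in the genome, so its reads could be split.

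In complex V, Atp5b fell with age from 917, 1074 and 932 FPKM in the fetus to 497, 533 and 634 FPKM in the adult, without overlap (log2 difference 0.82, SE 0.14, adjusted p = 4.29e-06), and was called higher than Day 60 at the 5 ages up to Day 5. Under upper quartile scaling it was not called (0.21, adjusted p = 0.128). Subunit c of the rotor ring comes from Atp5g1, Atp5g2 and Atp5g3: the last 78 codons before the stop give the same residues in Atp5g1 and Atp5g2 with 84.8% of bases identical, and in Atp5g2 and Atp5g3 with 77.2%. No pair shares a run of 50 bases. Atp5g3 supplied 73.9% of the trio's FPKM on Day 0 and 81.4% on Day 60, and rose from 562, 486 and 571 FPKM on Day 0 to 723, 759.9 and 901 FPKM on Day 1 (log2 difference 0.55, SE 0.17, adjusted p = 0.0147). Under upper quartile scaling this rise was not called by limma (0.40, adjusted p = 0.141).

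Atp5g2 had 72.8, 124 and 102 FPKM in the fetus, 115, 113 and 117 FPKM on Day 0 and 42.1, 57 and 66.6 FPKM on Day 60. Fetal mice were all above adult mice (log2 difference 0.83, SE 0.26, adjusted p = 0.00543; under upper quartile scaling 0.23, adjusted p = 0.489). Its share of the trio, which does not depend on the scaling, went from 15.8% (SD 1.01, n = 3) on Day 0 to 7.86% (SD 0.834, n = 3) on Day 60. Atp5g1 had 69.2, 90.1 and 80.9 FPKM in the fetus and 60.7, 69.6 and 97.1 FPKM in the adult (log2 difference 0.10, SE 0.23, adjusted p = 0.709). Atp5g2 has 3 near-identical copies in the genome, so its level is uncertain where reads were shared.

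Birth, before suckling, was addressed by Day 0 against GD17.5. Here 3 members were higher (Ndufa4l2, Cox7a1 and Cox4i2; background 13.1%) and 8 lower (background 41.4%), or 14.1% in all against 54.6%. Cox4i2 passed the filter only through ages at which it was high, with its highest age mean of 1.18 FPKM on Day 0. The median was -0.09 for members and -0.29 for all genes. Ndufa5 fell from 29.4, 35.2 and 37.2 FPKM to 20.3, 16 and 17.1 FPKM (log2 difference -0.90, SE 0.22, adjusted p = 0.00103), and Cox6c from 37.4, 30.3 and 30.3 FPKM to 21.1, 17.2 and 13.6 FPKM (log2 difference -0.89, SE 0.27, adjusted p = 0.00716). Both are accessory subunits, and newborn mice lay below all fetal mice. Cox6b2 fell too (log2 difference -0.64, SE 0.22, adjusted p = 0.0148). Upper quartile scaling gave 8 higher and 0 lower, or 10.3% of members against 46.1% of all genes, with none of Ndufa5 (-0.63, adjusted p = 0.0515), Cox6c (-0.63, adjusted p = 0.0924) and Cox6b2 (-0.38, adjusted p = 0.227) called, and without Day 0 replicate 3 the lower members were 4, or 5.13% against 36.8% of all genes.

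The first day of suckling was addressed by Day 1 against Day 0. Here 14 members rose (background 23.7%) and 3 fell (background 7.88%), or 21.8% in all against 31.6%, with medians of 0.15 for members and 0.19 for all genes. The risers came from all complexes: Ndufa5, Ndufa6, Ndufa10, Ndufb5, Ndufb10, Ndufs4 and Ndufv2, Sdhd, Uqcrb and Uqcrfs1, Cox5a and Cox7a2l, and Atp5f1 and Atp5g3. Cox5a, a subunit on the matrix side of complex IV, rose most, from 143, 131 and 138 FPKM to 218, 216 and 276 FPKM (log2 difference 0.77, SE 0.18, adjusted p = 0.00149). Those that fell were Ndufa4l2, Cox7a1 and Cox6b2 (for Cox6b2, log2 difference -0.67, SE 0.22, adjusted p = 0.0215). Upper quartile scaling gave 5 higher and 3 lower, or 10.3% of members against 26.7% of all genes. Without Day 0 replicate 2 the counts were 7 and 6, or 16.7% of members against 25.3% of all genes.

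Weaning was addressed by Day 25 against Day 20. Limma called 0 members higher (background 3.94%) and 1 lower, Cox7a2l (background 3.26%), or 1.28% in all against 7.19%. At an unadjusted p under 0.05 there were 4 members, for which no share of all genes is given here, and ordinary variances gave 1 call. The median was 0.11 for members and -0.07 for all genes.

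The suckling ages together (Days 1 to 20) were compared with those after weaning (Days 25 to 60). Of the members 12 were higher (background 68.1%) and 22 lower (background 11.7%), or 43.6% in all against 79.7%. The median was -0.09 for members and 0.39 for all genes, and 4 of 78 members lay above the all-gene median. Cox6b2 averaged 12 FPKM in suckling and 0.932 FPKM in weaned mice (log2 difference 2.26, SE 0.10, adjusted p = 4.16e-18), and Cox7a2l 64.3 and 39.3 FPKM (log2 difference 0.66, SE 0.07, adjusted p = 4.41e-10). Ndufa4l2 was higher as well (log2 difference 0.45, SE 0.09, adjusted p = 2.41e-05), but not under upper quartile scaling (0.20, adjusted p = 0.0654). Lower during suckling were, by size, Cox7a1 (log2 difference -0.75, SE 0.12, adjusted p = 2.35e-06), Ndufa4 (log2 difference -0.54, SE 0.11, adjusted p = 6.43e-05) and Ndufs6 (log2 difference -0.54, SE 0.11, adjusted p = 8.73e-05). Members higher and lower were 4 and 13 in complex I, 1 and 3 in complex II and 1 and 2 in complex III. In complex IV they were 3 and 4, and in complex V 3 and 0. This split by complex depended on the scale. Under upper quartile scaling, all tested members of complex V except Atp5b and Atp5g2 were called lower. Upper quartile scaling gave 3 higher and 66 lower, or 88.5% of members against 71.2% of all genes, so the share of members was then the larger one, and Atp5a1, Ndufa9, Ndufa10 and Uqcrc2 changed from called higher to called lower.

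Other genes of the pathway were counted from lists, beside the shares of all genes called higher and lower (56.4% and 18.6% for the fetus against the adult, 13.1% and 41.4% for Day 0 against GD17.5, 23.7% and 7.88% for Day 1 against Day 0). In the fetus against the adult, the 5 subunits with names outside the symbol rule (Ndufab1, Cyc1, Atp5o, Usmg5 and 2010107E04Rik) had 2 higher and 0 lower, Atp5o (log2 difference 0.71, SE 0.19, adjusted p = 0.00132) and 2010107E04Rik (log2 difference 0.55, SE 0.16, adjusted p = 0.00289). Values under upper quartile scaling are not given here for genes of any of these lists. That scaling moved the median of members in this comparison from 0.09 to -0.50. Differences of the size of those 2 may therefore depend on the scale. The 5 carriers and regulators around the chain (Cycs, Slc25a3, Slc25a4, Slc25a5 and the inhibitor Atpif1) had 4 higher and 0 lower. Atpif1, the inhibitor of ATP synthase, averaged 490 FPKM (SD 42.8, n = 3) in the fetus and 10.7 FPKM (SD 0.850, n = 3) in the adult (log2 difference 5.38, SE 0.24, adjusted p = 6.30e-18). Erythroid markers also fell between these ages. From Day 1 to Day 3, Atpif1 went from 164 to 207 FPKM and the mean erythroid marker sum from 29190 to 43470 FPKM. The part of erythroid cells in the Atpif1 result was not tested. Slc25a4, the ADP/ATP carrier of heart and muscle, averaged 70.4 FPKM on Day 0, 350.1 FPKM (SD 70.6, n = 3) on Day 1 and 3.43 FPKM on Day 60 (Day 1 against Day 0, log2 difference 2.34, SE 0.19, adjusted p = 2.97e-10). Cycs, cytochrome c, rose between Days 0 and 1 from 6.10 to 14.2 FPKM (log2 difference 1.08, SE 0.18, adjusted p = 4.48e-05). Day 1 against Day 0, these 5 carriers and regulators had 4 higher and 0 lower.

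Of 40 assembly factors, 26 were in the table and 25 tested, with 8 higher and 5 lower in the fetus against the adult, 1 higher and 13 lower on Day 0 against GD17.5 and 9 higher and 0 lower on Day 1 against Day 0. Among the factors that bring copper to complex IV, Cox17 averaged 86.4 FPKM in the fetus and 16.3 FPKM in the adult (log2 difference 2.34, SE 0.24, adjusted p = 6.76e-10), and Sco2 2.30 and 26.1 FPKM (log2 difference -3.03, SE 0.22, adjusted p = 4.85e-13). Cox11 was higher in the fetus (log2 difference 0.52, SE 0.13, adjusted p = 0.000545), and Cox19 had a log2 difference of 0.27 (adjusted p = 0.128). Like that of Atp5o, the excess of Cox11 may depend on the scale. Of 14 listed regulators, 11 were tested, with 5 higher and 2 lower in the fetus. Nrf1 averaged 11.7 FPKM (SD 0.705, n = 3) in the fetus and 1.65 FPKM (SD 0.166, n = 3) in the adult (log2 difference 2.26, SE 0.14, adjusted p = 2.42e-14), and Esrra, a factor of the ERR letters, was lower in the fetus (log2 difference -0.59, SE 0.16, adjusted p = 0.00169). The values of these named genes were seen before they were chosen from the lists.

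RefSeq held promoters, from 250 bases before to 50 after the start, for 66 of 81 members and 27025 genes in all. NRF1 letters stood in 24.2% of members and 5.19% of all genes, GABP letters in 24.2% of members and 9.93% of all genes, ERR letters in 12.1% of members and 5.38% of all genes and YY1 letters in 9.09% of members and 1.59% of all genes. In the runs printed above, Sdha has 3 NRF1 matches, which begin at -98, -55 and -10 from the start, and Atp5g1 and Cox6b2 have no match to any of the 4 motifs. These are matches of letters, and no binding was measured.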

How the data were processed

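The deposited table holds 1 FPKM value per gene symbol and mouse. Per the labels and the study's methods, the authors sequenced poly-A selected RNA as paired reads of 100 bases, mapped them to NCBI37/mm9 with TopHat (version 1.2.0 in the submitters' processing notes), and estimated FPKM with Cufflinks (version 1.0.3) against Ensembl version 65; no further scaling between libraries is named. Read counts were not used here, so depth was judged from steps in low values, which gave whole fragments (within 0.1) for 77.7% of the values of 1555 low genes.

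Tests covered the 11149 of 21889 symbols whose mean reached 1 FPKM at some age. log2(FPKM + 1) was fitted with limma 3.58.1 in R 4.3.3, with 1 mean per age over all 36 mice and moderated variances with a trend, and Benjamini-Hochberg adjustment ran over all tested genes. Differences are on the log2(FPKM + 1) scale, which understates changes of low genes. The fit was tested on simulated data. P-values measure the spread between mice of 1 age.

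Values were given for the 2 most abundant members of each complex, all Sdh genes, all alternative forms, members that did not pass the filter, members called in no age (some by name; 1 is not reported here), and the 3 largest rises and falls among calls in each comparison. The members, lists and tests were chosen with earlier results of these data known. Gene positions are from GENCODE M1 (mm9) and promoters from RefSeq (GRCm38.p6), and coordinates were not converted. Near-identical copies (at least 50% of a transcript at up to 5% divergence) were sought with minimap2 2.31. Tables and plots used Python 3.11.15, pandas 2.3.3, numpy 2.4.6 and matplotlib 3.10.9. Alternatives were another pseudocount, filters, scalings, variances, a replicate block, Dunnett's comparison and leaving out mice; removing trends with GC content and length, leaving out the 2 libraries with the most muscle RNA, and rescaling the sums and the ratios of age means, were chosen after seeing the data. The 13 genes of mitochondrial DNA were not analysed here.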

Additional observations from a re-analysis of the deposited data

How the results depend on the processing

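Scaling between libraries and trends with GC content and length both moved counts by over 1.5 times. Under upper quartile scaling, 22 in place of 63 members had age means under 2-fold apart, the highest age sum was 1.96 in place of 1.25 times the lowest, members higher and lower were 2 and 40 for GD17.5 against Day 60, 8 and 0 for Day 0 against GD17.5, 5 higher for Day 1 against Day 0, and 3 and 66 for Days 1-20 against Days 25-60. Of the calls made without this scaling, 11 of 18, 3 of 11, 8 of 17 and 25 of 34 stayed in these comparisons, 4 of the 34 turned to the opposite call, and the log2 ratio of the members' summed FPKM between GD17.5 and Day 60 went from 0.10 to -0.50. With trends over GC content and length removed, members higher and lower were 3 and 47 for GD17.5 against Day 60 (64.1% of members, 76.1% of all genes), 2 and 62 for Days 1-20 against Days 25-60 (82.0% and 73.1%), on Days 3 and 5 against Day 60 75.6% and 68.0% of members were called (63.6% and 60.8% of all genes), and there were 5 lower for Day 1 against Day 0 and 1 higher for Day 25 against Day 20, and Ndufb7 turned to -7e-04. With each library scaled to a common sum (TPM), 23 members rose on Day 1 (29.5%, with 26.2% of all genes) and 1 on Day 25 (1.28%, with 4.80% of all genes). Dunnett's comparison called 26 members in at least one age in place of 47, and its share of all genes is not given here. The other settings with all mice called 42 to 67. The 42 came with no filter on low values (53.85% of members, 75.7% of all genes). The 67 came with trends over GC content and length removed (85.9% of members, 93% of all genes). The cause was not tested. Scaling multiplies all values of a library by the same factor, but with 1 FPKM added before logs, low members shift less.

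Leaving out 1 mouse at a time gave 33 to 50 members called in at least one age. The 33 came without Day 60 replicate 2 (42.3% of members, 86.1% of all genes). For GD17.5 against Day 60, leaving out 1 mouse gave 6 (without GD17.5 replicate 2) to 13 higher and 7 to 9 lower. For Day 0 against GD17.5 it gave 2 (without GD17.5 replicate 1) to 4 higher and 4 to 10 lower. The 4 lower came without Day 0 replicate 3 (5.13% of members, 36.8% of all genes). For Day 1 against Day 0 it gave 7 to 16 higher and 3 to 6 lower. The 7 higher came without Day 0 replicate 2 (8.97% of members, 17.8% of all genes). For Day 25 against Day 20 it gave 0 to 1 higher (1 without Day 25 replicate 3) and 1 lower throughout, and for Days 1-20 against Days 25-60 12 to 14 higher and 20 to 29 lower. Members with age means under 2-fold apart numbered 57 to 65, and the highest age sum was 1.18 to 1.33 times the lowest. The log2 ratio of summed FPKM ranged from -9e-04 to 0.2049 and that of the share from -0.1198 to 0.0988.

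For the 25 values that are among the 3 largest rises or falls called in each of the 5 comparisons, 1149 alternatives were computed: 1131 kept direction and call, 17 lost the call and 1 turned. These values were picked as the largest calls in these data, and many alternatives only left out a mouse of another age. The few losses therefore do not measure how stable the calls of other members are. Losses by 1 mouse were Cox4i2 (without Day 0 replicate 3, adjusted p = 0.0779) and Cox7a1 (without GD17.5 replicate 1, 0.0673) on Day 0 against GD17.5, Cox6b2 there (without GD17.5 replicate 2 or Day 0 replicate 1) and Cox6b2 on Day 1 against Day 0 (without Day 0 replicate 3 or Day 1 replicate 1), all by limma. The replicate block called 58 members in at least one age (74.4%, with 93% of all genes). For GD17.5 against Day 60 it called 13 members higher and 9 lower, where 76.4% of all genes were called in either direction. The shares of all genes called higher and lower are not given here for the block. It does not pair the mice, which are different animals, and 104 of 198 pairs with the same number had deviations correlated over 0.1. Replicate 1 had the lowest summed FPKM of members at 10 of 12 ages and a member median below its age's mean at 11.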

Other observations

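Atp5k, a membrane subunit of ATP synthase, fell into separate clusters of values. It was 7.14 FPKM in GD17.5 replicate 3, 6.397 and 6.239 FPKM in Day 1 replicates 2 and 3, 5.53 FPKM in Day 15 replicate 1 and 8.19 FPKM in Day 30 replicate 3, while the other 31 mice had 50.98 to 144.6 FPKM. The low values occur beside high ones at each of these 4 ages, so the difference of Day 1 from Day 60 (log2 difference -2.20, limma adjusted p = 0.0332 within that comparison and 0.0509 over all of them) rests on 2 mice.

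For many members, the age at which they were highest depended on Day 30 replicate 1, the only library left out for this count. Day 30 was the highest age for 30 of 78 members with all mice and for 7 without Day 30 replicate 1. In that library the 39 shorter members stood a median of 0.59 above the other mice of the age on the log2 scale and the 39 longer ones 0.19. Day 25 replicate 2 had 0.61 and 0.40. Differences from the other mice of the age also ran with transcript length in other libraries. Over all genes, the Spearman correlation was -0.63 in Day 30 replicate 1, 0.66 in GD17.5 replicate 1 and -0.63 in Day 1 replicate 3. It was -0.03 in Day 0 replicate 1.

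Of the 78 tested members, 20 have at least 1 near-identical copy elsewhere in the genome, led by Atp5l with 10 and Atp5h with 4. Their median level was 55.2 FPKM, against 91.1 FPKM for the 58 without one.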
